A study of Homo sapiens with 6 samples.

Results

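The 7 genes described here encode the subunits of inhibin and activin (INHA, INHBA, INHBB and INHBE) and 3 proteins of the follistatin family (FST, FSTL3 and FSTL1). They were chosen by symbol, with earlier results of these data known. All 7 were found among the 58336 gene identifiers of the RNA-seq tables. All 7 also passed the low-count filter, which kept 16416 genes for testing. The cells were KGN, a human cell line that came from a granulosa cell tumour of the ovary, grown in 10% fetal bovine serum. KGN carries the tumour-associated C134W change on 1 copy of FOXL2, which encodes a forkhead transcription factor of granulosa cells. The WT/WT group held 3 libraries in which C134W had been reverted with CRISPR/Cas9 (44a, 4.72 and 4.72-44a). The WT/C134W group held 3 libraries that kept the change (3.11, 44b and 3.11-44b), and the labels record no editing for them. In both groups RNA was taken 30 h after transfection, and what was transfected is not named. The labels name the edit for the WT/WT group only, so genotype and editing cannot be told apart.

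In each group 1 library carries the joined names of the other 2 clones and may be a mix of them. Genotypes were therefore compared over the 4 libraries that name a single clone, 2 per genotype, and the joined libraries are given as values. Nothing in the labels says how many cultures a library came from. Each clone had 1 library, so the spread behind the p-values joins differences between clones, cultures and libraries. The edgeR fit also draws on all genes to estimate this spread. Library totals ran from 35332727 to 46613068 expected counts. Of 12 granulosa markers, 5 reached 1 TPM (transcript abundance, scaled per transcript length and per library) in at least 1 library. The 5 were FOXL2, AMH (18.0 to 44.4 TPM), NR5A1 (19.4 to 26.7 TPM), STAR (2.01 to 6.47 TPM) and HSD17B1 (0.43 to 2.85 TPM). FSHR, AMHR2 and GATA4 were listed at 0 in all 6 libraries, and CYP19A1, the aromatase gene, reached at most 0.60 TPM. The sum of the 12 was 53.0 to 55.3 TPM in WT/WT and 48.8 to 81.7 TPM in WT/C134W, with overlap. FOXL2 itself had 3.70 and 2.36 TPM in 44a and 4.72, against 5.25 and 5.48 TPM in 3.11 and 44b, and 2.17 and 3.47 TPM in 4.72-44a and 3.11-44b, so that the groups overlapped once the joined libraries were included. Sums of 2 marker lists of other cell types did not overlap between genotypes, and 1 gene made up most of each. All 6 fibroblast and stromal markers reached 1 TPM, and their sum, most of it COL1A1, was 7670 to 9343 TPM in WT/WT against 4447 to 5183 TPM in WT/C134W. COL1A1 had 6825 to 8632 TPM against 3816 to 4493 TPM. PDGFRB was also lower in WT/C134W without overlap, at 147 to 245 TPM against 104 to 119 TPM, whereas PDGFRA, THY1, LUM and DCN overlapped. Such separation was common: over the 4 single clones, by counts scaled to library size, 19.7% of all genes tested were lower and 19.9% higher in WT/C134W without overlap. Of 4 Sertoli markers, SOX9 alone reached 1 TPM, DMRT1 and SOX8 were at 0, and the sum was 2.62 to 6.48 TPM against 7.49 to 13.2 TPM. The part of these differences in the results below was not tested. In bulk RNA, fewer cells that express a gene and less RNA of it per cell cannot be told apart.

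Activins are dimers of beta subunits, and inhibins pair the alpha subunit with a beta subunit. Activin binds type II and then type I receptor kinases, which phosphorylate SMAD2 and SMAD3. Inhibin competes for the type II receptor with the help of betaglycan, and follistatin and FSTL3 bind activin outside the cell and block it. Granulosa cells of the ovary are a main source of inhibin, and FOXL2 and SMAD3 are known to act together on FST.

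The promoters of INHA and INHBA are printed because these genes lay at opposite ends of the subunits' expression. Each stretch is the part of the 250 bases before the RefSeq start (GRCh38.p14) that GENCODE release 29 places in no exon of the gene, written 5′ to 3′ on the gene's strand. Capitals mark matches to the motifs named below.
INHA, chr2:219572060-219572194, plus strand: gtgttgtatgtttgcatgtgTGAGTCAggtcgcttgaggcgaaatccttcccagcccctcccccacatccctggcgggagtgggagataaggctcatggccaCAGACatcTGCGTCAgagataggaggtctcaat
INHBA, chr7:41703109-41703340, minus strand: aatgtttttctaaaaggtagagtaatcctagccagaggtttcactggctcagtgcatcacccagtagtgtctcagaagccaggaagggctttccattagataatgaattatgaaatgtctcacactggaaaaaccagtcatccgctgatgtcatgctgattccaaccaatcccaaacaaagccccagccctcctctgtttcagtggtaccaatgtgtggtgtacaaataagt

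A set of 7 motifs was searched on both strands of the 250 bases before the start of 35116 RefSeq promoters, of which 6 of the 7 genes had an entry. INHA held TGANTCA, the AP-1 motif, 230 bases before its start, and this motif was in 6.57% of all promoters. It also held CAGAC, the short SMAD-binding motif found in 38% of promoters, 148 bases before the start. The variant cAMP response element TGCGTCA, found in 2.09% of promoters and known to bind CREB in granulosa cells, lay 140 bases before the start of INHA. INHBA held a TATAAA motif 11 bases before its start, past the printed stretch, and FSTL3 held a match to the same motif at 29 bases. FST held TGANTCA at 160 bases, within an exon of the gene in GENCODE. TATAAA was in 10.7% of promoters. The letters of the SMAD palindrome GTCTAGAC (0.182% of promoters), the forkhead motif GTAAACA (2.98%) and the cAMP response element TGACGTCA (1.65%) were in none of the 6 windows. Of the 250 bases, 30 in FST and 0 in FSTL1 lie outside GENCODE exons of the gene, so these windows are mostly or wholly exonic. No motif overlapped another in the INHA stretch. The windows differed in base composition, from 42.8% G and C in INHBA to 89.6% in INHBB.

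The alpha subunit gene was close to silent in every library. INHA (ENSG00000123999, chromosome 2, 219569162 to 219575713, plus strand, GRCh38) had 0.51 TPM in 44a and 0.31 TPM in 4.72. In the WT/C134W clones it had 0 TPM in 3.11 and 0.25 TPM in 44b. The joined libraries had 0.51 TPM (4.72-44a) and 0 TPM (3.11-44b). These levels rested on 8, 12, 0 and 10 expected counts in 44a, 4.72, 3.11 and 44b. Taking 3 counts as the limit that a count of 0 allows, INHA could reach 0.0725 CPM (counts scaled to TMM-adjusted library size) in 3.11 and 0.0783 CPM in 3.11-44b. The exact two-sided 95% Poisson interval, a wider bound, ran from 0 to 3.69 counts in 3.11 and from 4.80 to 18.4 counts in 44b. Both limits cover counting error only. The genotypes overlapped in CPM, with 0.181 and 0.296 in 44a and 4.72 against 0 and 0.220 in 3.11 and 44b. As the log2 ratio of WT/C134W to WT/WT, the fold change was -1.08 ± 2.14 (SE, 2 clones per genotype), with an adjusted p of 0.965 in edgeR's quasi-likelihood test. At this depth a genotype difference in INHA was not detectable.

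RSEM also gives each gene's length as the mean over its transcripts, weighted by their estimated share, so this length tells which INHA transcript took the counts. INHA has a coding transcript of 1468 bases (INHA-201) and a non-coding transcript of 645 bases (INHA-202). The weighted length was 645 bases in 44a and 1468 bases in both 4.72 and 44b. All INHA signal of 44a was thus assigned to the non-coding transcript, and the coding transcript was estimated at 0 TPM there. In 4.72 and 44b all of it was assigned to the coding transcript, at 0.31 and 0.25 TPM. In 4.72-44a the coding transcript took 42.6% of the INHA level, or 0.217 TPM. Of the 645 exonic bases of INHA-202, 285 lie inside OBSL1, a cytoskeletal adaptor gene on the opposite strand, whereas no exonic base of INHA-201 does. OBSL1 had 52.5, 36.6, 23.9 and 29.1 TPM in 44a, 4.72, 3.11 and 44b. In 4.72-44a, where INHA-202 took 57.4% of the INHA level, OBSL1 had 35.2 TPM, below its level in 4.72, where INHA-202 took none. These shares rest on 12 expected counts of INHA in each of 4.72-44a and 4.72, and a link with OBSL1 was not tested. The strand setting of the counting is not given in the sources used here, so reads of OBSL1 and INHA-202 cannot be told apart.

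INHBA, which encodes the beta A subunit of activin A, was the main subunit gene and was lower in both WT/C134W clones than in either reverted clone. INHBA (ENSG00000122641, chromosome 7, 41667168 to 41705834, minus strand) had 62.1 TPM in 44a and 51.4 TPM in 4.72, against 23.7 TPM in 3.11 and 42.5 TPM in 44b. The joined libraries had 59.0 TPM (4.72-44a) and 38.6 TPM (3.11-44b). No WT/C134W library reached the lowest WT/WT library. On the CPM scale the means were 178 ± 33.2 in WT/WT and 93.6 ± 37.7 in WT/C134W (SD, n = 2 clones). The log2 fold change was -0.93 ± 0.31 (SE), a level 1.91-fold higher in WT/WT, with an adjusted p of 0.647 in edgeR's test across all genes. It was -0.57 without 3.11 and -1.42 without 44b. The antisense transcript INHBA-AS1 shares 11919 bases of the locus and had 0.88, 0.96, 0.51 and 0.85 TPM in 44a, 4.72, 3.11 and 44b. INHBA-AS1 thus stood far below INHBA in each clone.

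INHBB, the beta B subunit gene, showed the same order of genotypes at a lower level. INHBB (ENSG00000163083, chromosome 2, 120346143 to 120351808, plus strand) had 9.89 TPM in 44a and 4.68 TPM in 4.72, against 3.26 TPM in 3.11 and 4.10 TPM in 44b. Levels in the joined libraries were 5.32 TPM (4.72-44a) and 3.36 TPM (3.11-44b). The groups did not overlap, but 4.72 and 44b were close, and 44a stood apart from all other libraries. INHBB had a log2 fold change of -1.14 ± 0.41 (SE), with an adjusted p of 0.647 in edgeR's test. Without 44a it was -0.54.

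INHBE, the beta E subunit gene, known mainly from liver, was low in all libraries but 3.11. INHBE (ENSG00000139269, chromosome 12, 57452323 to 57459280, plus strand) had 0.76 TPM in 44a, 1.13 TPM in 4.72, 5.18 TPM in 3.11 and 0.25 TPM in 44b. In the joined libraries it had 1.81 TPM (4.72-44a) and 1.38 TPM (3.11-44b). The highest and the lowest value of the 4 clones both belonged to WT/C134W, 204 expected counts in 3.11 (exact 95% Poisson interval 177 to 234) and 17 in 44b (9.90 to 27.2). For INHBE the log2 fold change was 0.92 ± 1.14 (SE), with an adjusted p of 0.916 in edgeR's test. Its sign depended on 1 clone and on the tool: it was -1.89 without 3.11 and -0.11 with limma voom. The weighted transcript length equalled that of the full coding transcript, 2429 bases, in 44a and 44b. It was 2008 bases in 4.72, 1585 in 4.72-44a, 1645 in 3.11 and 1299 in 3.11-44b, so RSEM assigned part of the level to shorter INHBE transcripts there. These lengths rest on 63, 73, 204 and 40 expected counts in the same order, and on 55 in 44a and 17 in 44b.

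**Figure D1:**
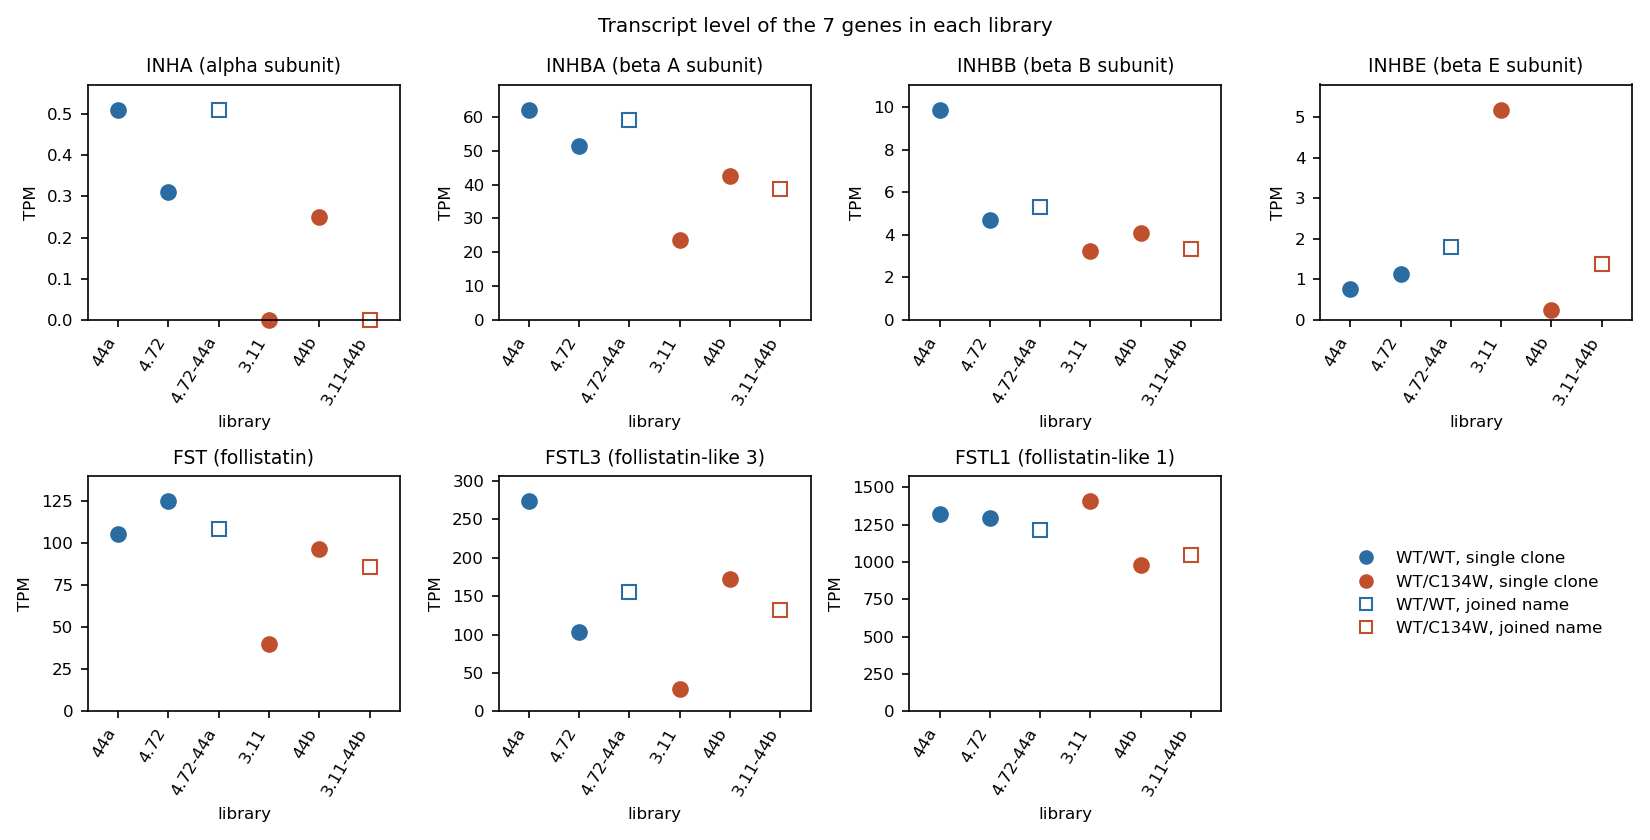
Transcript level (TPM, linear axes starting at 0, a separate range per gene) of the 7 genes in the 6 libraries; filled circles are single clones, open squares the joined libraries, blue WT/WT and red WT/C134W. INHBA runs from 23.7 TPM in 3.11 to 62.1 TPM in 44a with no overlap between genotypes, while INHBE peaks at 5.18 TPM and FSTL3 has its lowest value, 29.4 TPM, in the same clone, 3.11.

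FST, which encodes follistatin, was lowest in 3.11 and between 96.8 and 125 TPM in the other 3 single clones. FST (ENSG00000134363, chromosome 5, 53480409 to 53487134, plus strand) had 105 TPM in 44a, 125 TPM in 4.72, 40.4 TPM in 3.11 and 96.8 TPM in 44b. Joined library 4.72-44a had 109 TPM and 3.11-44b had 86.1 TPM. The genotypes did not overlap, although 44b lay close to 44a. In CPM the means were 144 ± 19.0 in WT/WT and 83.7 ± 46.0 in WT/C134W (SD, n = 2 clones). FST had a log2 fold change of -0.78 ± 0.41 (SE), with an adjusted p of 0.741 in edgeR's test. Without 3.11 it was -0.30, and without 44b it was -1.50.

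FSTL3, a secreted follistatin relative that binds activin with high affinity, had the widest spread of the 7 genes. FSTL3 (ENSG00000070404, chromosome 19, 676365 to 683399, plus strand) had 273 TPM in 44a, 103 TPM in 4.72, 29.4 TPM in 3.11 and 172 TPM in 44b. Joined libraries 4.72-44a and 3.11-44b had 155 and 132 TPM. The genotypes overlapped, since 44b lay above 4.72. The log2 fold change was -1.05 ± 1.09 (SE), with an adjusted p of 0.901 in edgeR's test. Leaving out 44a gave -0.22 and leaving out 3.11 gave -0.26, whereas leaving out 4.72 gave -1.58 and leaving out 44b gave -2.96. The clones of 1 genotype differed more than the genotypes: on the log2(CPM + 0.5) scale FSTL3 was 6.39-fold higher in 44b than in 3.11 and 2.61-fold higher in 44a than in 4.72. The SD of its log2 value over the 4 clones exceeded that of 98.7% of the genes tested.

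FSTL1, a matrix-associated glycoprotein that shares the follistatin domain and is known to bind BMP4, was the most abundant of the 7. FSTL1 (ENSG00000163430, chromosome 3, 120392293 to 120451253, minus strand) had 1320 TPM in 44a, 1292 TPM in 4.72, 1407 TPM in 3.11 and 983 TPM in 44b. For 4.72-44a and 3.11-44b the values were 1212 and 1047 TPM. In CPM, 44a, 4.72 and 3.11 lay between 2456 and 2470, and 44b had 1714. The genotypes overlapped, and 44b stood apart from the other 3 clones. The log2 fold change was -0.23 ± 0.24 (SE), with an adjusted p of 0.889 in edgeR's test. It was -0.52 without 3.11 and -0.0026 without 44b. Its mean TPM exceeded that of 99.3% of the genes tested. The pseudogene AC063952.1, on the opposite strand, shares 31534 bases of the locus and had 2.10 to 3.57 TPM over the 6 libraries. MIR198, which lies within the FSTL1 gene, was listed at 0 in all 6 libraries, in a library preparation for mRNA.

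Across the 7 genes, 0 passed an adjusted p of 0.05 in edgeR's quasi-likelihood test, as did 0% of the 16416 genes tested. At an unadjusted p under 0.05 there were 2 of 7, INHBA and INHBB, against 7.57% of all genes. DESeq2 called 0 of the 7 at an adjusted p of 0.05, against 1.72% of all genes. With limma voom 0 of the 7 were called, but so were 0 of all genes tested. Values were lower in both WT/C134W clones than in both WT/WT clones for 3 of 7, INHBA, INHBB and FST, against 19.7% of all genes. None was higher without overlap, against 19.9% of all genes. The fold change was negative for 6 of 7 and positive for INHBE, with a median log2 value of -0.93, beside 0.0054 over all genes tested. Because the 7 were chosen with earlier results of these data known, the values over all genes give scale only and do not test the group. Without a low-count filter edgeR called 4 of the 7, INHBA (adjusted p = 0.00093), INHBB (0.046), FST (0.0102) and FSTL3 (0.000187), each lower in WT/C134W. Of the 24301 genes in that fit, 1.75% were called and lower in WT/C134W, and 664 genes were called in either direction. FSTL3 is among the 4 although its genotypes overlap. With the joined libraries as added replicates edgeR called 0 of the 7, against 3.18% of all genes, and the smallest adjusted p was 0.078, for INHBA. A fit with 44a and 44b as a block, and 3.11 and 4.72 as the other, also called 0 of the 7, against 0.0305% of all genes.

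**Figure D2:**
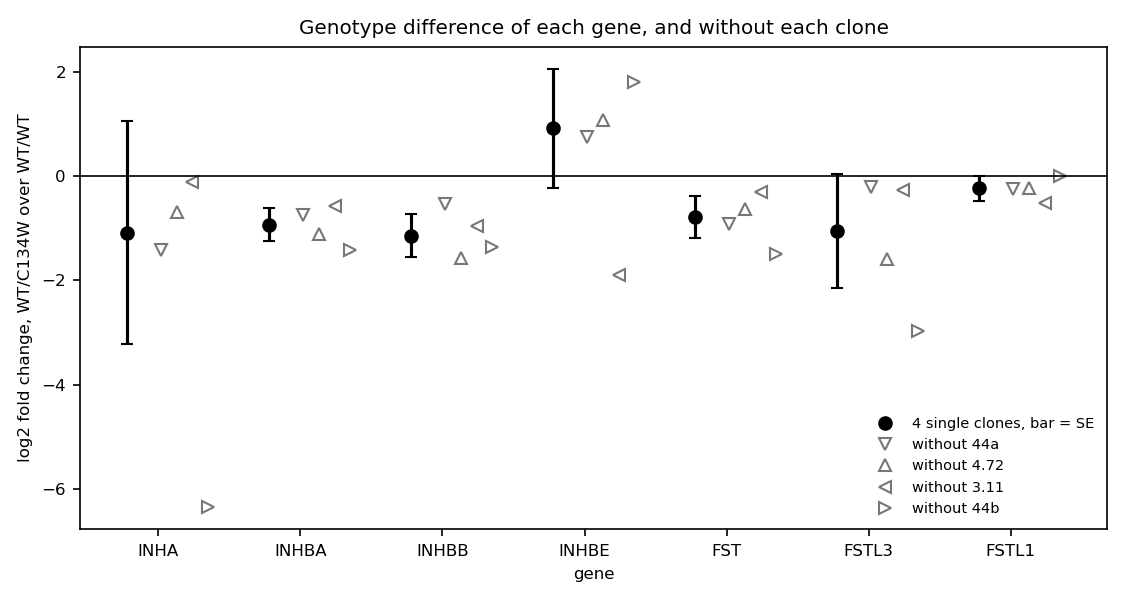
Genotype difference (log2, WT/C134W over WT/WT) of each gene from edgeR on the 4 single clones (black circles, bars are SE) and after leaving out each clone in turn (open triangles). INHBA stays between -1.42 and -0.57 and INHBB between -1.57 and -0.54, while INHBE runs from -1.89 without 3.11 to 1.81 without 44b.

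Clone 3.11 held the lowest value of the 4 clones for 5 of the 7 genes, INHA, INHBA, INHBB, FST and FSTL3, and 30.9% of all genes tested had their lowest value in it. The summed epithelial markers were also lowest there, at 451 TPM beside 1095 to 1523 TPM in the other 5 libraries. This came from KRT18, since KRT8 had 67.7 TPM in 3.11 and 62.7 to 69.9 TPM elsewhere, and EPCAM (1.17 TPM) and KRT19 (3.13 TPM) were highest in 3.11. Their part in the values of the 7 genes was not tested. Set against 44b, the other clone of its genotype, FST and FSTL3 were at least 2-fold lower in 3.11, as were 6.07% of all genes. INHBE was 6.21-fold higher there, and 5.14% of all genes were at least 2-fold higher. Between the reverted clones, INHBB (2.02-fold) and FSTL3 were at least 2-fold higher in 44a than in 4.72, as were 4.82% of all genes. None of the 7 was 2-fold lower in 44a, against 4.55% of all genes. These comparisons set 1 library against 1 library and have no replicate check. By SD over the 4 clones, FSTL3, INHBE (96.7th percentile), INHBB (90.2nd), FST (89.4th) and INHBA (88.0th) all varied more than most genes tested. INHA (48.4th) and FSTL1 (43.4th) did not. INHA had 0 to 0.296 CPM in these clones, and the 0.5 CPM added before log2 limits its SD, so its percentile does not show a stable level.

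The joined library 3.11-44b lay within the range of 3.11 and 44b for all 7 genes, INHA being at 0 in it and in 3.11, and 49% of all genes did so. From 3.11 towards 44b on the CPM scale, it stood 74.0% of the way for INHBA, 65.4% for FST, 63.4% for FSTL3, 79.2% for FSTL1 and 85.3% for INHBE. INHBB was the exception, at 20.4%. The library 4.72-44a lay within its clones' range for 4 of 7, INHBA, INHBB, FST and FSTL3, against 49.3% of all genes. For FSTL1 it had 2485 CPM beside 2456 and 2461 in its clones, which are close together, and INHBE and INHA rest on few counts.

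The levels could also be compared between genes, since TPM is per length. In every library FSTL1 was highest, INHA was lowest (level with INHBE at 0.25 TPM in 44b), FST was above INHBA, and INHBA was above INHBB and INHBE. The order of FST and FSTL3 differed between clones: FSTL3 took 72.2% of their sum in 44a and 64.0% in 44b, but 45.1% in 4.72 and 42.1% in 3.11. INHBB was above INHBE in 44a, 4.72 and 44b, and below it in 3.11. INHBA made up 85.4% and 89.8% of the summed beta subunit level in 44a and 4.72, and 73.8% and 90.7% in 3.11 and 44b. INHBE made up 16.1% of that sum in 3.11 and between 0.534% and 3.19% in the other 5 libraries. The summed beta subunit level was 72.8 and 57.2 TPM in the reverted clones and 32.2 and 46.9 TPM in the WT/C134W clones, without overlap.

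Follistatin and FSTL3 transcripts together outnumbered those of INHBA and INHBB in every library. Their ratio was 5.26 in 44a, 4.06 in 4.72, 2.59 in 3.11 and 5.78 in 44b, and 4.10 and 5.21 in the joined libraries 4.72-44a and 3.11-44b. The WT/C134W clones held both the lowest and the highest ratio. The log2 ratio differed by -0.26 between genotypes (exact two-sided permutation test, p = 1, where 2 clones against 2 cannot go below 0.333). The ratio of FST alone to INHBA was narrower, 1.70 in 44a, 2.43 in 4.72, 1.70 in 3.11 and 2.28 in 44b. FST and INHBA thus stood in a similar ratio in 44a and 3.11, whose levels of both genes differed widely. INHA stood at 0.708% of the INHBA and INHBB sum in 44a, 0.553% in 4.72 and 0.536% in 44b. It was at 0 in 3.11, which is left out of the log2 difference of this ratio, -0.22 over the other 3 clones (exact permutation test, p = 0.667).

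**Figure D3:**
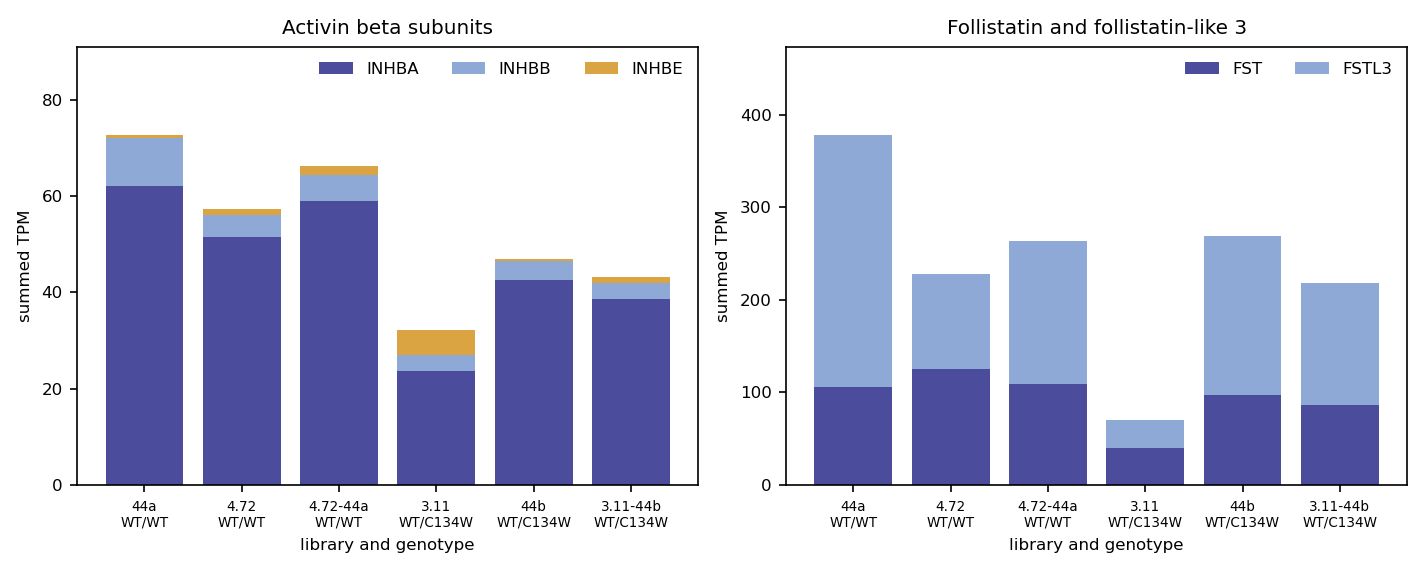
Summed transcript level (TPM, bars from 0) of the activin beta subunits (left) and of FST and FSTL3 (right) in the 6 libraries, stacked by gene. The beta subunit sum is 72.8 and 57.2 TPM in 44a and 4.72 against 32.2 and 46.9 TPM in 3.11 and 44b, and the FST and FSTL3 sum is lowest in 3.11, at 69.8 TPM.

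Receptors and signal transducers of the pathway were split in direction. Of 20 genes 18 were tested, 0 passed edgeR's test over all genes, and 9 had positive and 9 negative fold changes, with a median log2 value of -0.019. SMAD7, an inhibitor of the receptors induced by activin itself, had 66.0 and 61.1 CPM in 44a and 4.72 against 32.7 and 43.8 CPM in 3.11 and 44b. SMAD3, the signal transducer that partners FOXL2, had 137 and 165 CPM against 118 and 77.3 CPM. TGFBR3, betaglycan, the inhibin co-receptor, had 4.33 and 3.99 CPM against 11.5 and 6.20 CPM. TRIM33, a ubiquitin ligase that acts on SMAD4, had 29.6 and 25.4 CPM against 35.5 and 39.9 CPM. Their log2 fold changes were -0.73, -0.63, 1.09 and 0.46, with adjusted p of 0.593, 0.658, 0.658 and 0.658 in edgeR's test. These 4 were named for their small p. Of the 18 tested, 4 were lower and 4 higher in WT/C134W without overlap, beside 19.7% and 19.9% of all genes, and 4 had an unadjusted p under 0.05, beside 7.57% of all genes. Of the type I receptors, ACVR1B, through which activin signals, had 3.41 to 5.02 TPM over the 6 libraries, while ACVR1C had at most 0.22 TPM. Of the type II receptors, ACVR2A had at most 3.59 TPM and ACVR2B 0.20 to 0.66 TPM.

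None of the activin-responsive genes passed the test. Without FST, INHBA and INHBB, which are themselves such genes, 10 of 19 were tested and 0 passed over all genes. The fold change was negative for 7 and positive for 3, with a median log2 value of -0.61. JUNB, an AP-1 subunit, had 118 and 66.3 CPM in 44a and 4.72 against 23.2 and 26.5 CPM in 3.11 and 44b, a log2 fold change of -1.89 ± 0.30 (SE) with an adjusted p of 0.48 in edgeR's test. SMAD7 is in this list as well. Of the 10, 5 were lower and 0 higher in WT/C134W without overlap, beside 19.7% and 19.9% of all genes tested, and JUNB and SMAD7, named for their small p, are among the 5. TGF-beta ligands induce these genes too, so the list is not particular to activin. FSHB, FSHR, GNRHR, LEFTY2, MIXL1 and GSC were at 0 in all 6 libraries.

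Genes of processing and binding partners were tested for 12 of 24, with 6 positive and 6 negative fold changes, a median log2 value of 0.09 and 0 passing over all genes. SPARC, a matrix protein that shares the follistatin domain, had 6174 and 4725 CPM in 44a and 4.72 against 1721 and 2855 CPM in 3.11 and 44b. FURIN, the protease that cleaves activin precursors, had 179 and 182 CPM against 108 and 128 CPM. TLR4, a receptor reported for FSTL1, had 13.7 and 13.2 CPM against 23.1 and 16.2 CPM. GDF15, a stress-induced ligand of the family, had 4.67 and 1.53 CPM against 3.82 and 8.20 CPM and overlapped. SPARC and FURIN had log2 fold changes of -1.25 ± 0.31 and -0.62 ± 0.16 (SE), each with an adjusted p of 0.593 in edgeR's test. TLR4 had 0.55 ± 0.25 and GDF15 0.96 ± 0.68 (SE), with adjusted p of 0.692 and 0.821 in the same test. These 4 were named for their small p. Of the 12 tested, 2 were lower and 1 higher in WT/C134W without overlap, beside 19.7% and 19.9% of all genes. An unadjusted p under 0.05 was found for 2, beside 7.57% of all genes. BMP4, which FSTL1 binds, had 57.1 and 35.0 CPM against 83.1 and 37.3 CPM. MSTN, BMP15, BMP2, BMP7, INHBC and FSTL4 were at 0 in all 6 libraries. GDF11, which follistatin also binds, had 9.08 to 13.7 TPM over the 6 libraries.

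**Figure D4:**
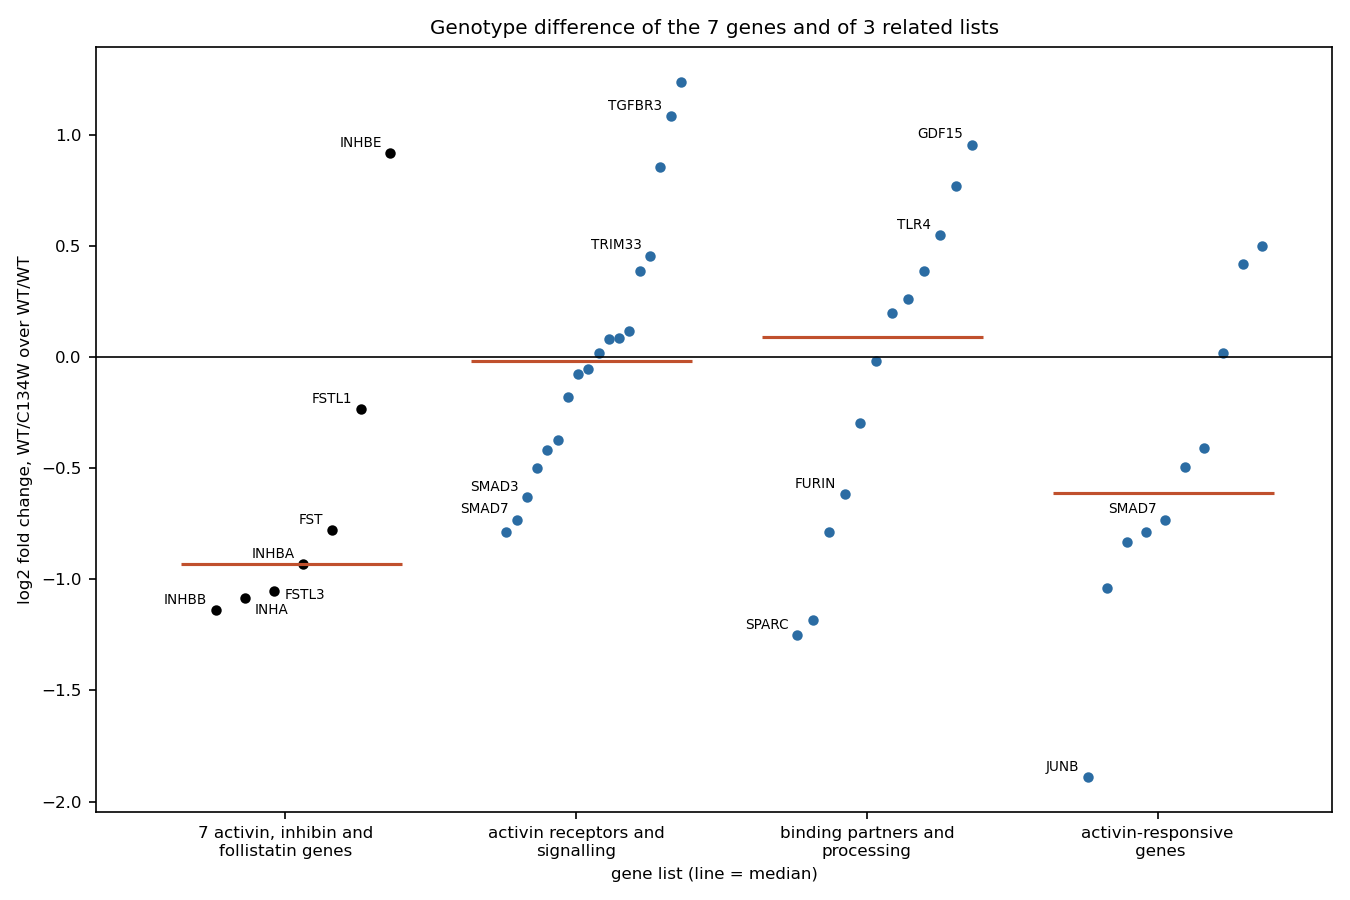
Genotype difference (log2, WT/C134W over WT/WT; edgeR, 4 single clones), of the 7 genes and of the tested genes of 3 related lists, each point a gene and each red line the median; the genes with the smallest p in each list are named (2 for activin-responsive genes, 4 for the other lists). The median is -0.93 for the 7 genes, -0.019 for receptors and signalling, 0.09 for binding partners and processing and -0.61 for activin-responsive genes, and 0 genes passed the test.

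The genes whose pattern over the 6 libraries was most like that of the 3 most variable members were searched among 11842 protein-coding genes, by the root mean square difference of centred log2(CPM + 0.5) values. For FSTL3 they were KSR1, a scaffold of the RAF and MEK kinases (0.14), DSP, desmoplakin (0.15), and PRDM11 (0.19). DSP had 991 and 477 CPM in 44a and 4.72 against 105 and 712 CPM in 3.11 and 44b, with 3.11 lowest and 44b above 4.72 as in FSTL3. For INHBE they were BHLHE41, a circadian and hypoxia-responsive repressor (0.19), VEGFA, the vascular growth factor (0.24), and ANG, angiogenin (0.27). VEGFA had 155 and 218 CPM in 44a and 4.72 against 418 and 101 CPM, again highest in 3.11 and lowest in 44b. For INHBB they were MAPK11, a p38 kinase (0.11), STC2, stanniocalcin 2 (0.12), and ZSWIM4 (0.14). STC2 had 252 and 128 CPM in 44a and 4.72 against 88.5 and 119 CPM, highest in 44a as INHBB was. With 6 libraries, 2 of which may be mixes of the others, these matches are given as a description only.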

How the data were processed

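RNA of 6 KGN libraries was made into stranded mRNA libraries from total RNA of integrity number above 8.8, per the labels' protocols. The authors deposited RSEM gene tables with, per the file headers, an expected count (estimated reads per gene, unscaled), TPM (scaled per effective length and library) and the weighted transcript length, another per-gene value. Per the submitters' processing notes, the tools were RSEM 1.3.1, STAR 2.7.6a, DESeq2 1.26.0, Picard 2.8.1 and R 3.6.3, with no roles stated. A mouse build is listed, although the gene identifiers are human. No source used here gives the human build, annotation release or strand setting. Symbols and coordinates came from GENCODE release 29 (58216 of 58336 identifiers matched), promoters from RefSeq.

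Expected counts were rounded, filtered with filterByExpr, scaled by TMM and tested over all genes with edgeR 4.0.16 (quasi-likelihood, robust) in R 4.3.3 on the 4 single clones, with Benjamini-Hochberg adjustment at 0.05. The SE is the log2 fold change over the square root of edgeR's F. CPM is TMM-scaled over 6 libraries. Alternatives used DESeq2 1.42.0, limma 3.58.1, other scalings, filters, samples, a block (44a and 44b, whose names share a stem, then the remaining 2 clones) and log2(TPM + 1 or 0.1). The fits were tested on simulated data. Named genes were the 7 members, up to 4 per related list by smallest p (2 results are not reported here), and 3 nearest in pattern for each of the 3 most variable members. Genes overlapping a member and FOXL2 were named as well. Marker genes and genes at 0 were named for their lists, and ACVR1B, ACVR1C, ACVR2A, ACVR2B, BMP4 and GDF11 after their values were seen. Members and lists were chosen with earlier results of these data known.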

Additional observations from a re-analysis of the deposited data

How the results depend on the processing

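With 2 clones per genotype, a single clone can set a value, and genes with few counts (INHA, INHBE) are limited by depth. The count of genes called, 0 with edgeR (1243 at an unadjusted p under 0.05), was 511 with all 6 libraries, 283 with DESeq2, 664 without the low-count filter, 5 with the block of 44a and 44b against the remaining 2 clones, and 0 to 0 without each clone. Of the 7 genes, 4 were called without the low-count filter and 0 under the other alternatives run, 0 to 0 without each clone. INHBE was -0.11 with limma voom and ran from -1.89 to 1.81 without each clone. The other 6 kept a negative sign in every fit that tested them. With library totals only they were smaller in size: -0.86 for INHA, -0.71 for INHBA, -0.93 for INHBB, -0.55 for FST, -0.85 for FSTL3 and -0.0085 for FSTL1. The TMM factors over the 6 libraries did not overlap, at 0.901 to 0.947 in WT/WT against 1.08 in each WT/C134W library. The INHA, INHBB and INHBE fits had no value at 10 CPM, and INHA had none with all 6 libraries or with the TPM filter. INHA without 44b (-6.35) is fitted against a count of 0 and is no bound. The cause of these differences was not tested.

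The ratio of antagonists to beta subunits (log2 difference -0.26) ran from -0.84 to 0.32 without each clone, and the INHA ratio from -0.40 to -0.04, with no value without 44b. List medians without each clone ran from -0.15 to -0.041 for receptors and signalling, -0.18 to 0.23 for binding partners, and -0.90 to -0.35 for activin-responsive genes. With library totals only, which moved the median of all genes to 0.23, they were 0.20, 0.32 and -0.39. With log2(TPM + 1), which moved it to 0.14, they were 0.15, 0.29 and -0.30, with log2(TPM + 0.1) 0.18, 0.29 and -0.30, and without the TPM filter 0.13, 0.058 and -0.24. Receptors stood at -0.10 with the 10 CPM filter, and binding partners at -0.0044. Binding partners were 0.043 with all 6 libraries, 0.065 with limma voom and -0.024 without the low-count filter. The labels state no pairing of clones across genotypes, and the fit with the block was the only paired one. The block rests on the stem that 44a and 44b share; 3.11 and 4.72 share none and form the other block by default. It called 0 of the 7 genes.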
